A study of Homo sapiens with 12 samples.

Results

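The glucose by glutamine interaction was measured for every gene with enough reads in MDA-MB-231 cells, an established human breast adenocarcinoma line, kept in 4 media for 36 h. Glucose was given at 25 mM and glutamine at 4 mM: both were in the full medium, only glucose in the glucose-only medium, only glutamine in the glutamine-only medium, and neither in the medium called deficient. All 4 media contained 3% serum, which itself carries some nutrients, and each medium was sampled by 3 libraries of total RNA depleted of ribosomal RNA. Genes entered when 3 or more of the 12 libraries had a normalized count of 10 or more, which took 9270 of the 63187 genes of the file, or of the 32493 genes with any read. For each gene the interaction was the mean log2(normalized count + 1) in full and deficient medium added together, less the means in both single-nutrient media. It is 0 when the fold effects of glucose and glutamine multiply, so that the effect of either nutrient is the same with and without the other. It lies above 0 when full and deficient together are higher than the single-nutrient media together, and below 0 when they are lower. Whether the 3 libraries per medium stem from separate cultures is not in the labels, so the p-values measure the spread between libraries, which may be technical.

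Glucose feeds glycolysis, the pentose phosphate pathway and the hexosamine pathway, while glutamine gives cells nitrogen, glutamate and carbon for the tricarboxylic acid cycle. Cells read a shortage through stress programs: the transcription factor ATF4 turns on amino acid uptake and synthesis, sensors in the endoplasmic reticulum (ER) answer poor glycosylation with more ER chaperones, and HSF1 answers unfolded cytosolic protein with heat shock genes. Such programs can respond to either shortage, to their sum, or to the joint loss alone, and those cases differ in the interaction.

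Libraries held 875033 to 1473587 reads assigned to genes and detected 17414 to 19817 genes. Of 10 markers fixed for this mesenchymal type of breast line, VIM lay at 641 to 1047 normalized counts and CD44 at 377 to 786. EPCAM, on the same list, was low, with averages of 8.44, 10.6, 5.52 and 8.44 in full, glucose-only, glutamine-only and deficient medium. In the same order S100A4 averaged 649, 292, 544 and 168 and KRT8 157, 115, 102 and 65.3. These fell from full to deficient medium, while VIM and CD44 were higher in deficient than in full medium. No library reached 10 for any of the 6 fibroblast, 6 blood or 3 fat cell markers, and the same held for 2 of 4 endothelial and 5 of 8 luminal epithelial markers, CDH1 and ESR1 among them. The exceptions were KRT19 at 63.9 to 164 and ERBB3 and MUC1 at no more than 16.4 and 10.6 for the luminal list, and PECAM1 and KDR for the endothelial list. PECAM1 averaged 14.9, 3.49, 10.3 and 4.49 and KDR 2.94, 4.42, 5.57 and 14.1 in full, glucose-only, glutamine-only and deficient medium, and the part of such cells in the results was not tested. Protein-coding genes took 52.3% to 59.8% of the reads in full and 41.6% to 46.2% in glucose-only libraries, with no overlap. The range was 48% to 54.6% in glutamine-only and 42.9% to 51.6% in deficient libraries. This share did not enter the fit, and its part in the results was not tested. In bulk RNA, fewer cells in a state and less RNA per cell cannot be told apart.

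Departure from multiplying effects was common, and the medium without both nutrients was most often the one that stood apart. With limma-trend and Benjamini-Hochberg adjusted p under 0.05 over all 9270 genes, 2458 genes (26.5%) were called: 1438 (15.5%) above 0 and 1020 (11%) below 0. Of these, 1413 (15.2% of the tested genes) had an interaction of at least 1 in size on the log2 scale, 738 above 0 and 675 below. On the recovered reads DESeq2 called 1495 genes and edgeR 2524. The split between directions depended on the scaling: 58.5% of calls lay above 0 as deposited, 51.6% with equal totals per library and 45.7% after quantile normalization. The median interaction of all tested genes was 0.06, with a 5th percentile of -1.33 and a 95th percentile of 1.32.

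The interaction part of the differences between media was smaller than either average effect. Of the variation between the 4 medium means, summed over all tested genes and less the noise, 44.1% belonged to the average glucose effect, 35.5% to the average glutamine effect and 20.4% to the interaction. In the same fit 3602 genes (38.9%) had a called average glucose effect and 3531 (38.1%) a called average glutamine effect. The effect of a nutrient was called more often when the other was missing. Glucose changed 4008 genes (43.2%) without glutamine and 2083 (22.5%) with it, and glutamine changed 3844 genes (41.5%) without glucose and 2124 (22.9%) with it. Among the 2458 called genes, 1417 had a called glucose effect only in the absence of glutamine, 415 only in its presence, 202 in both with the same sign and 289 in both with opposite signs. For glutamine the same numbers were 1361, 443, 146 and 341.

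**Figure D1:**
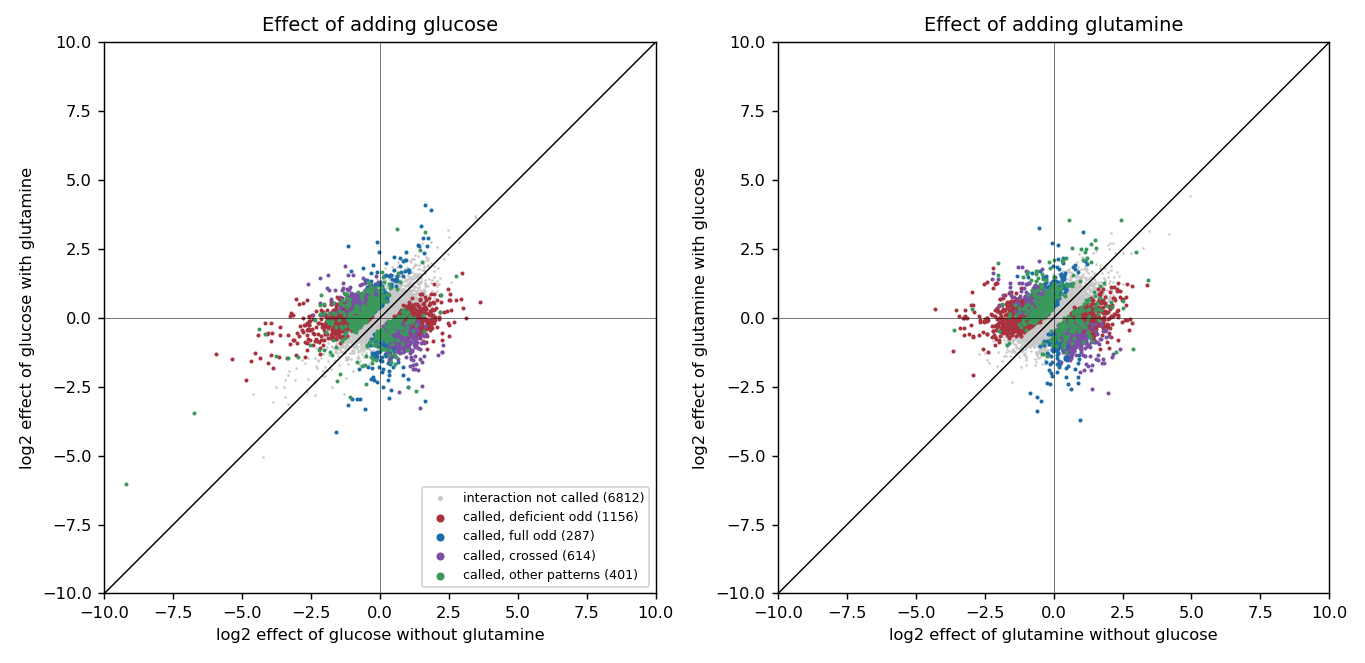
Each point is a tested gene; the horizontal axis is the log2 effect of adding a nutrient without the other and the vertical axis the effect of adding it with the other present, for glucose (left) and glutamine (right). Genes on the diagonal have an interaction of 0; the 1156 called genes with the deficient medium as the odd one (red) spread along the horizontal axis, and the 287 with the full medium as the odd one (blue) along the vertical axis.

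Each called gene was assigned its odd medium from the 4 medium means that make up the contrast, so the classes are a description with no test of their own. The highest or lowest medium was the odd one when its gap to the next medium was at least as large as the range of the other 3. Otherwise a gene was crossed when full and deficient both lay above, or both below, the single-nutrient media, and graded when neither held. The deficient medium was the odd one in 1156 called genes (47% of those called, against 31.5% of all tested genes), high in 712 (7.68% of tested genes) and low in 444 (4.79%), together 12.5%. The full medium was the odd one in 287 (11.7% against 13.2%), high in 159 (1.72% of tested genes) and low in 128 (1.38%), together 3.10%. Glucose-only stood apart in 137 (1.48% of tested genes), high in 36 (0.388%) and low in 101 (1.09%), and glutamine-only in 111 (1.20%), high in 57 (0.615%) and low in 54 (0.583%). Crossed genes numbered 614 (25% against 11.3%; 6.62% of tested genes), 303 with both single-nutrient media high (3.27%) and 311 with both low (3.35%). Graded genes numbered 153 (6.22% against 30.5%; 1.65% of tested genes), 101 above 0 (1.09%) and 52 below (0.561%). The class rule keeps a crossed gene away from 0, while a graded gene can lie at 0. The shares among called and tested genes therefore differ in part by construction, and these gaps were not tested. Without the deficient libraries, 665 of the 712 genes that were high there would still have passed the filter on low values.

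**Figure D2:**
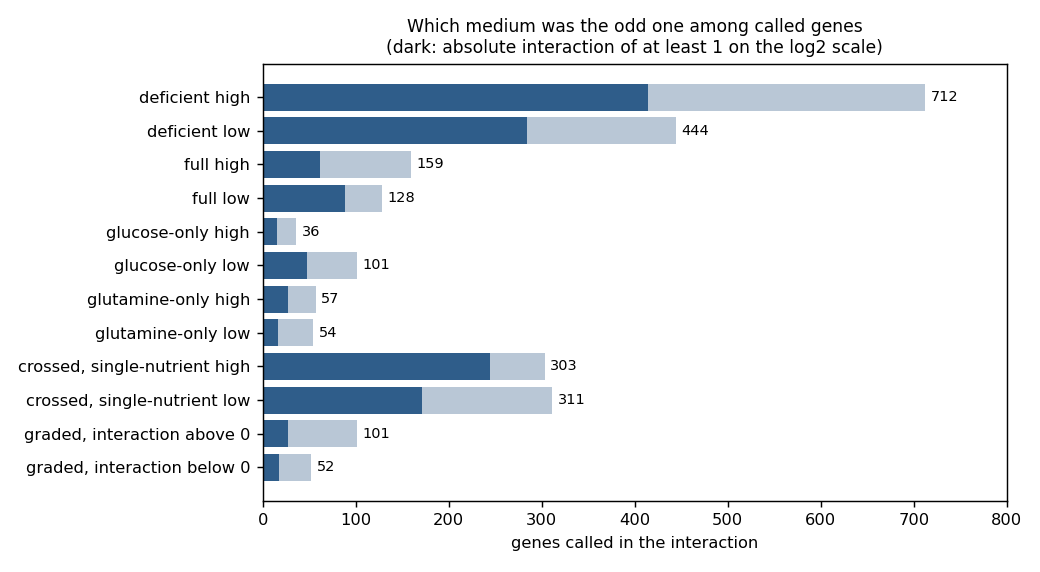
Bars count the 2458 called genes by the medium that stood apart and its direction; the dark part of a bar counts genes with an interaction of at least 1 in size (log2). The longest bars are deficient high (712) and deficient low (444), and each crossed class holds about as many genes (303 and 311) as the other.

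Upstream sequences of a few genes show the motifs that the stress programs named above are known for, placed here because the programs fell into different classes. Windows of 250 bases before a RefSeq start (GRCh38.p14) were searched on both strands for the heat shock element (HSE: GAA and TTC, in either order, with 2 bases between them), the element read by ATF4 with a C/EBP partner (CARE: TGATG, any base, AA) and the ER stress element (ERSE: CCAAT, 9 bases, CCACG). Matches are in capitals, neighbouring HSE matches may overlap, and bases that a GENCODE 29 exon covers were left out. DNAJB1 (chr19:14518421-14518647, minus strand), HSPB1 (chr7:76302423-76302543, plus strand) and HSPA6 (chr1:161524290-161524539, plus strand) are shown for the heat shock genes. CEBPG (chr19:33373896-33374112, plus strand) and ATF3 (chr1:212565157-212565333, plus strand) are shown for ATF4 targets on opposite sides of 0. ATF3 was near or under the minimum count of 10 outside the deficient medium. HSPA5 (chr9:125241344-125241593, minus strand) is shown for a stress gene with an interaction near 0.
DNAJB1: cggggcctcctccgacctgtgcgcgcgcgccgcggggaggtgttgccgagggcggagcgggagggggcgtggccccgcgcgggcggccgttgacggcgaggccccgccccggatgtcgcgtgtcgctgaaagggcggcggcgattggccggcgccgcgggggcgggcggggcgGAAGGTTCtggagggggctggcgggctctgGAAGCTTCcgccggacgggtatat
HSPB1: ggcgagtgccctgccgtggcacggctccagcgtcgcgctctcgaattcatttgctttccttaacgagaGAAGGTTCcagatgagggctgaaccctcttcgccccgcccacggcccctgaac
HSPA6: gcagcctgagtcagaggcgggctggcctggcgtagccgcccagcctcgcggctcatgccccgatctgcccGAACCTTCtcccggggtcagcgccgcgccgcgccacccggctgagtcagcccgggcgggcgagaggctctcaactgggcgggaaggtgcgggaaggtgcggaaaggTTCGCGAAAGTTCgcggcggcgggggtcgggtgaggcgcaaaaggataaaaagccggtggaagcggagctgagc
CEBPG: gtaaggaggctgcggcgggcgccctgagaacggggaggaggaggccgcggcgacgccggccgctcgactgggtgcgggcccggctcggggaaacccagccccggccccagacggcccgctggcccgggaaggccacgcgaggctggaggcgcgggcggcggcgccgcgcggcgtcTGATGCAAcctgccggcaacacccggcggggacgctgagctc
ATF3: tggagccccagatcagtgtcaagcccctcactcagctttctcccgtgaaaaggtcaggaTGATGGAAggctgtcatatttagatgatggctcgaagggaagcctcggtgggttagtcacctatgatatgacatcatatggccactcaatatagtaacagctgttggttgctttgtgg
HSPA5: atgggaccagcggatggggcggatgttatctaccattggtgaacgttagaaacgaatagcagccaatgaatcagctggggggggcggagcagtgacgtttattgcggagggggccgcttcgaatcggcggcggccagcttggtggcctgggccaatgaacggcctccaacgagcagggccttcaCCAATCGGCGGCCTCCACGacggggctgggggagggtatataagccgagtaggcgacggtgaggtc
A window was in the table for 7128 of the 8539 tested protein-coding genes (83.5%), and a gene was counted when any of its listed starts had a match. An HSE stood before 11 of the 20 heat shock list genes with a window (55%), before 12% of tested genes and before 15.1% of the genes called with the deficient medium high. A CARE stood before 4 of 21 ATF4 targets (19%), 2.38% of tested genes and 8 of 89 genes called with the full medium low (8.99%). The ERSE stood before 8 of 27 ER genes (29.6%) and 0.182% of tested genes. Among all 35116 windows of the table the shares were 11.6% for the HSE, 3.14% for the CARE and 0.074% for the ERSE. A match describes the letters and is no evidence of binding.

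Cytosolic chaperones gave the largest departures above 0 among abundant genes, with deficient cells far above the other media. In some members, DNAJB1 and HSPA6 among them, glutamine-only cells also lay above full and glucose-only cells. Of 28 listed chaperone and heat shock genes 21 were tested, and 19 were called, all above 0 (background 15.5%), with a median interaction of 2.04 against 0.06 over all tested genes. The deficient medium was the high one in 17 of the 19. DNAJB1 (ENSG00000132002, chromosome 19, 14514769 to 14560391), a co-chaperone that hands clients to HSP70, read 72.7, 70.5 and 66.0 in full libraries A to C, 65.0, 50.3 and 51.7 in glucose-only, 161, 175 and 186 in glutamine-only and 3341, 3502 and 3617 in deficient libraries. The deficient libraries lay far above the other 9, and the glutamine-only libraries above full and glucose-only. Multiplying the fold effects would have put the deficient medium at 138, and the observed mean was 25 times that, an interaction of 4.64 ± 0.15 (moderated standard error, SE; adjusted p = 1.69e-19). Glucose lowered DNAJB1 by 5.95 on the log2 scale without glutamine and by 1.31 with it.

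HSP90AA1 (ENSG00000080824, chromosome 14, 102080742 to 102139749), the stress-inducible cytosolic HSP90, read 855, 919 and 921 in full, 694, 637 and 618 in glucose-only, 780.3, 845 and 775 in glutamine-only and 5531, 6119 and 6506 in deficient libraries. The 9 libraries with at least 1 nutrient spanned 618 to 921 and did not reach any deficient library. Its interaction was 3.38 ± 0.14 (adjusted p = 1.25e-16), and reads of its near-identical processed copies could be counted with it. HSPH1, the HSP110 exchange factor, read 69.4, 61.1 and 79.8 in full, 50.6, 63.9 and 58.8 in glucose-only, 112, 85.7 and 115 in glutamine-only and 975, 990.1 and 962 in deficient libraries, an interaction of 3.50 ± 0.18. The small heat shock gene HSPB1 (2.62 ± 0.21) and the HSP70 exchange factor BAG3 (2.44 ± 0.17) had the same pattern, BAG3 at 448 ± 11.2 (SD, n = 3) in deficient medium. The 2 tested members without a call were the HSP90 partner CDC37 (-0.36) and the factor HSF2 (0.69).

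HSPA6, an HSP70 gene that is nearly silent outside stress, shows how a gene near 0 behaves in this contrast. It was listed at 0, 0 and 1.83 in full, 1.20, 2.10 and 0 in glucose-only, 95.6, 79.0 and 97.9 in glutamine-only, and 1148, 1117 and 1120.5 in deficient libraries. Loss of glucose alone brought it into view and the joint loss went far beyond that. Its interaction of 3.20 ± 0.48 rests on the pseudocount of 1, because full and glucose-only were at or under 3 reads per library. On recovered whole reads it was not called (edgeR adjusted p = 0.188, DESeq2 adjusted p = 0.194). HMOX1, the haem-degrading enzyme of the oxidative stress response, was similarly low with glucose, at 0 to 7.05 in the 6 libraries, against 30.8 to 37.9 in glutamine-only and 249.9 to 312 in deficient libraries, and its interaction was 3.29 ± 0.63 (adjusted p = 0.000235).

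The TRiC chaperonin, the ring that folds actin and tubulin, departed in the same direction. All 7 tested of 8 subunit genes were called above 0 (15.5% of all tested genes were), with a median of 1.18. TCP1 read 74.1, 68.6 and 81.6 in full, 42.2, 43.0 and 49.4 in glucose-only, 57.7, 59.7 and 69.0 in glutamine-only and 239.5, 231 and 207 in deficient libraries. The single-nutrient libraries lay between 42.2 and 69.0, and the deficient libraries were above all others (interaction 2.57 ± 0.18, adjusted p = 1.67e-11). CCT4 and CCT7 were crossed, with full and deficient both above the single-nutrient media.

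**Figure D3:**
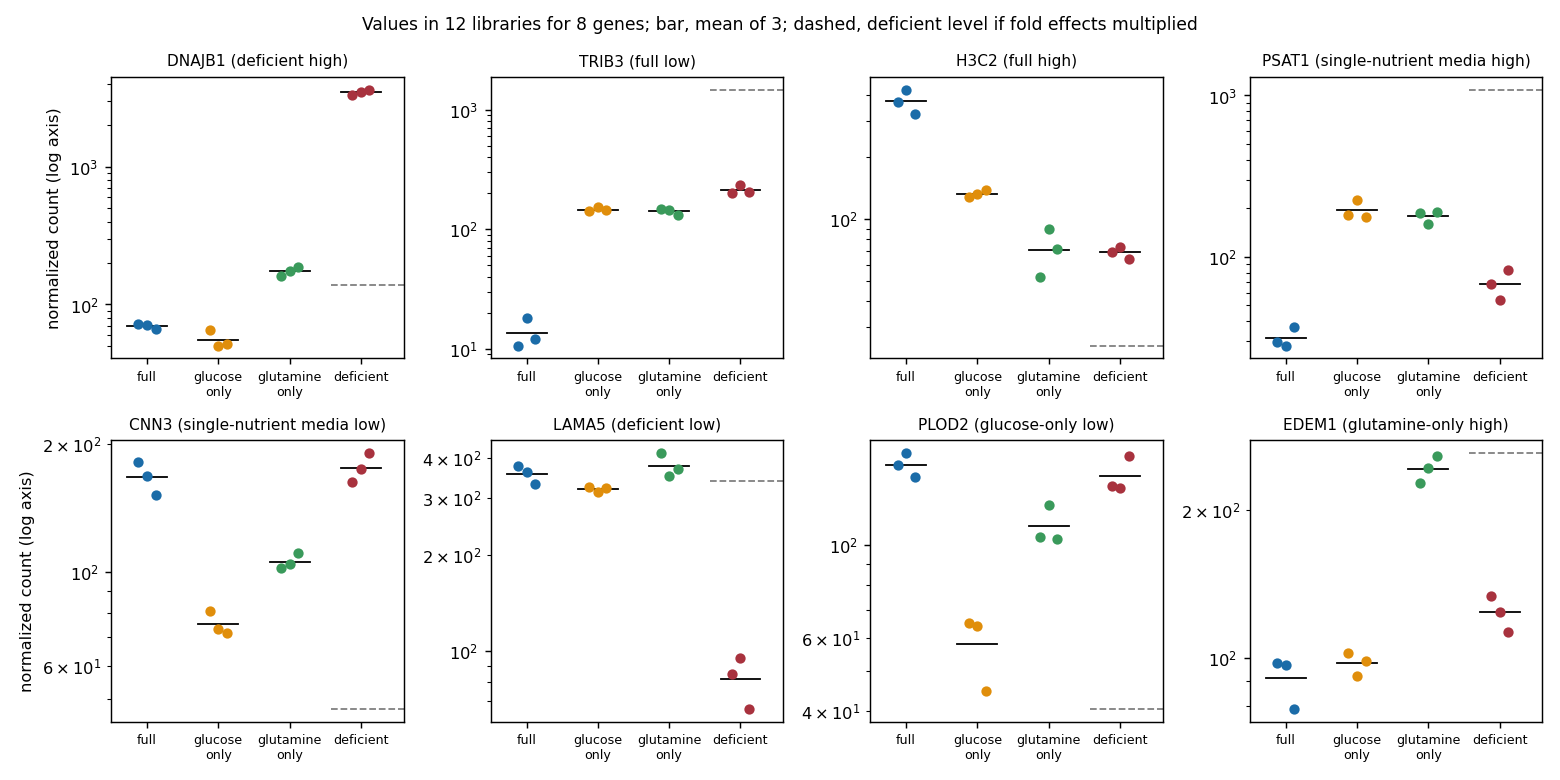
Normalized counts (log axis) of 8 genes in the 12 libraries, 1 panel for each pattern named in the title; points are libraries, black bars are means of 3, and the grey dashed line marks where the deficient medium would lie if the fold effects multiplied. DNAJB1 lies far above the line in the deficient medium, TRIB3 far below it although deficient is its highest medium, and PSAT1 is high in both single-nutrient media.

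Immediate early genes and YAP targets were also mostly high in deficient cells. Of 18 tested immediate early genes, which answer growth factor and stress kinases within minutes, 12 were called, all above 0. That is 66.7%, against 15.5% of all tested genes called above 0. Their median was 1.34, and deficient was the odd medium in 11. EGR1 read 21.2, 21.6 and 17.4 in full, 44.6, 26.2 and 27.0 in glucose-only, 107, 85.7 and 106 in glutamine-only and 907, 978 and 992 in deficient libraries. Its media did not overlap between glutamine-only and deficient, and the interaction was 2.62 ± 0.22 (adjusted p = 3.56e-10). FOS (3.89 ± 0.39), the phosphatase gene DUSP1 (3.49 ± 0.33) and JUN (2.03 ± 0.20) lay on the same side.

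Among 15 tested YAP and TEAD targets, read in adherent cells as a sign of cytoskeletal tension, 10 were called above 0 and 1, AJUBA, below (median 0.89). Together that is 73.3%, against 26.5% of all tested genes, of which 15.5% were called above 0. ANKRD1 was at 134, 160, 160 and 668 in full, glucose-only, glutamine-only and deficient medium on average, and its interaction was 1.81 ± 0.14. THBS1, a matrix glycoprotein, read 182, 188 and 199 in full, 184, 212 and 225 in glucose-only, 115, 131 and 123 in glutamine-only and 700.3, 717 and 724 in deficient libraries. It fell without glucose when glutamine was present (glucose effect 0.62) but stood highest when both were missing, an interaction of 2.41 ± 0.14. The secreted Wnt antagonist DKK1 reached 422 ± 45.2 in deficient medium and 33.7 ± 5.79 to 51.3 ± 6.57 elsewhere (interaction 2.49 ± 0.20).

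Growth arrest genes were called above 0 in 8 of 18 tested (44.4%, against 15.5% of all tested genes; median 0.95) and below 0 in none, and 10 did not pass. CDKN1A, the p21 inhibitor of cyclin-dependent kinases, was at 98.1 ± 4.02 in full, 61.0 ± 3.06 in glucose-only, 73.1 ± 11.3 in glutamine-only and 187 ± 22.2 in deficient medium. Either single loss lowered it and the joint loss raised it (interaction 2.02 ± 0.18). Nucleolar genes of ribosome biogenesis were called in 13 of 33 tested (39.4%), all above 0 (median 0.60), against 15.5% of all tested genes. Deficient was high in 12, and DESeq2 called 6. GNL3 averaged 60.4, 55.5, 58.0 and 125 in the 4 media in the same order. Of 69 tested cytosolic ribosomal protein genes 27 were called (39.1%), all above 0, against the same 15.5%. Their values were small (median 0.34, highest 0.96 for RPS15). These genes have many near-identical copies and their values are uncertain.

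The deficient medium was the low one in 444 called genes, of which LAMA5, SLC37A2 and COL6A1 are described here. LAMA5 (ENSG00000130702, chromosome 20, 62309065 to 62367312), a laminin chain of basement membranes, read 378, 361 and 332 in full, 324, 314 and 323 in glucose-only, 414, 352 and 370.0 in glutamine-only and 84.6, 95.4 and 66.0 in deficient libraries. The libraries with at least 1 nutrient lay between 314 and 414 and none came near the deficient ones. Its interaction was -2.05 ± 0.16 (adjusted p = 9.88e-11), and its glucose effect was 1.97 without glutamine and -0.08, not called, with it. SLC37A2, an exchanger of sugar phosphates, averaged 143, 118, 188 and 37.0 (interaction -2.07 ± 0.19), and the collagen VI chain COL6A1 averaged 41.6, 41.9, 52.6 and 17.8 (-1.53 ± 0.26). The list of 28 tested matrix and adhesion genes went both ways, with 8 called above 0 and 5 below (median -0.01), and deficient was the odd medium in 10 of the 13. These calls made 46.4% of the tested list, against 26.5% of all tested genes.

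ATF4 targets departed in the opposite sense: the median glucose effect over the tested targets was -1.51 with glutamine and -0.09 without it, and the median glutamine effect -1.34 with glucose and 0.01 without it. Of 31 listed targets 24 were tested; 19 were called below 0 (background 11%) and 1, ATF3, above, with a median of -1.53, and the full medium was the low one in 15. TRIB3 (ENSG00000101255, chromosome 20, 380760 to 397559), a pseudokinase that feeds back on ATF4, read 10.6, 17.9 and 11.9 in full, 142, 152 and 143 in glucose-only, 147, 143 and 131 in glutamine-only and 200.5, 233 and 204 in deficient libraries. The full libraries lay under 18 and all others above 130, with deficient the highest. Multiplied effects would have put deficient cells at 1468, and 213 ± 17.8 was observed, an interaction of -2.79 ± 0.20 (adjusted p = 2.73e-11). Glutamine lowered TRIB3 by 3.38 on the log2 scale with glucose present and by 0.59 without it, and both effects were called.

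RBCK1 (ENSG00000125826, chromosome 20, 408299 to 432139), which lies beside TRIB3 and encodes a subunit of the linear ubiquitin ligase, read 36.4, 29.1 and 41.3 in full, 206, 180.2 and 186 in glucose-only, 161, 138 and 160.3 in glutamine-only and 108, 115 and 95.5 in deficient libraries. Unlike TRIB3, its deficient libraries lay under every single-nutrient library (interaction -2.92 ± 0.18, adjusted p = 1.25e-12). The cystine transporter SLC7A11 averaged 106, 242, 327 and 195 (-1.93 ± 0.15), and its partner SLC3A2 averaged 42.4, 174, 329.6 and 351 (-1.93 ± 0.15). ATF4 itself, which is regulated mainly through translation, averaged 83.9, 133, 147 and 142 and departed less (-0.70 ± 0.16). DDIT3, a pro-apoptotic factor of the same program, was not called (-0.79, adjusted p = 0.154), but without full replicate C it was (-1.19), and 31.6% of its exonic bases are shared with genes on the other strand. ATF3 averaged 2.66, 5.12, 8.63 and 69.0, with deficient high (2.24 ± 0.59). Outside the deficient medium its libraries lay at 0.917 to 10.8, and it passed the filter on low values only through the deficient libraries. On recovered reads its call was marginal (edgeR adjusted p = 0.0446, DESeq2 adjusted p = 0.0475).

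Amino acid transporters mostly followed the same shape, while genes of glutamine, glutamate and proline metabolism went both ways. Of 20 tested in the latter list, 5 were called above 0, among them PPAT (1.68 ± 0.34), and 5 below (median 0.12). That is 50% called, against 26.5% of all tested genes. Of 16 tested amino acid transporters 11 were called (68.8%), all below 0 (median -1.24), against 11% of all tested genes. Full was the low medium in 8 of these transporters. SLC1A5, the main glutamine carrier, read 56.9, 56.4 and 40.4 in full, 159, 132 and 158 in glucose-only, 165, 167 and 158 in glutamine-only and 134, 112 and 104 in deficient libraries. Full libraries were the lowest without overlap, and deficient libraries were lower on average than both single-nutrient media (interaction -2.03 ± 0.19); 23.8% of its exonic bases are shared with genes on the other strand, and the strand setting of the counting was not given. Of 19 tested cytosolic aminoacyl-tRNA synthetases 10 were called below 0 and 2, KARS1 and FARSA, above (median -0.43), and DESeq2 called 7 in all. The 12 calls of the main fit made 63.2% of the tested synthetases, against 26.5% of all tested genes. WARS1, which charges tryptophan tRNA, averaged 43.2 ± 5.60 in full, 116 ± 7.57 in glucose-only, 209.9 ± 4.42 in glutamine-only and 135 ± 10.6 in deficient medium (-2.05 ± 0.17).

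GFPT1 (ENSG00000198380, chromosome 2, 69319780 to 69387227), the first and rate-limiting enzyme of the hexosamine pathway, uses both glucose carbon and glutamine nitrogen. It read 56.2, 81.8 and 75.2 in full, 194, 206 and 199 in glucose-only, 293, 289 and 319 in glutamine-only and 177, 138 and 167 in deficient libraries. Losing glucose raised GFPT1 when glutamine was present (glucose effect -2.08) and lowered it when glutamine was absent (0.32), and both effects were called (interaction -2.40 ± 0.17, adjusted p = 2.73e-11). The remaining hexosamine genes went both ways, with UAP1 at 1.90 ± 0.20 and OGT, the O-GlcNAc transferase, at -1.47 ± 0.17. Antisense transcript GABPB1-AS1 showed the same shape as GFPT1, with averages of 41.1, 148, 127 and 92.9 (-2.27 ± 0.17).

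Crossed genes had the single-nutrient media on the same side of both full and deficient. In 163 called genes of any class (1.76% of those tested) the effects of both nutrients were called with and without the other and had opposite signs. Of these, 76 had the single-nutrient media high and 87 had them low. Some of the 163 fell outside the crossed class, such as PLOD2, which had glucose-only as its odd medium. PSAT1 (ENSG00000135069, chromosome 9, 78297125 to 78330093), an enzyme of serine synthesis and an ATF4 target, had the lowest interaction of all genes named here. It read 29.8, 28.2 and 36.7 in full, 182, 226 and 178 in glucose-only, 187, 161 and 190.1 in glutamine-only and 67.7, 54.3 and 83.1 in deficient libraries. The single-nutrient libraries lay above all others, deficient in between and full lowest, with no overlap. Multiplied effects would have put deficient PSAT1 at 1083, and the mean was 68.4 ± 14.4 (interaction -3.99 ± 0.21, adjusted p = 1.43e-14).

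Serine synthesis and folate genes were called below 0 in 6 of 13 tested (46.2%, median -0.71), against 11% of all tested genes. Among the 6 were PSPH (-2.07 ± 0.43) and SHMT2 (-1.85 ± 0.17). PHGDH, the first enzyme of serine synthesis, was near the count minimum, at 2.66 to 9.74 on average; its value of -2.10 ± 0.73 kept its call in 5 of the 12 fits with a library left out (-2.62 to -1.69). NIBAN1, a stress-regulated gene, averaged 88.1, 209, 199.8 and 129.9 (-1.87 ± 0.17). VEGFA, the angiogenic growth factor, read 234, 261 and 236 in full, 326, 388 and 357 in glucose-only, 373, 379 and 370.0 in glutamine-only and 281, 232 and 271 in deficient libraries. Full and deficient libraries of VEGFA overlapped each other and lay under every single-nutrient library (-1.07 ± 0.14, adjusted p = 1.39e-06).

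In the other crossed class the single-nutrient media were low. CNN3, an actin-binding calponin, read 181, 168 and 151 in full, 80.7, 73.3 and 71.7 in glucose-only, 102, 104 and 111 in glutamine-only and 163, 175 and 190.2 in deficient libraries. Full and deficient overlapped, while both single-nutrient media lay lower with no overlap (interaction 1.87 ± 0.16, adjusted p = 4.41e-10). The cytokine gene CSF2 averaged 43.6, 15.6, 14.2 and 60.7 (3.43 ± 0.30), and the cell cycle kinase CDK6 averaged 126, 106, 77.5 and 206 (1.65 ± 0.17). Proteasome subunits, which form the protease for ubiquitin-tagged proteins, leaned to this side. Of 28 tested, 16 were called (57.1%), all above 0 (median 0.61), against 15.5% of all tested genes. Of the 16, 7 were crossed and 5 had glutamine-only low, and DESeq2 called 5 of the 28. PSMD14, the deubiquitinase of the lid, averaged 59.1, 41.6, 35.1 and 63.0 (1.31 ± 0.23).

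Genes of cell division were highest in the full medium, and either nutrient had the larger effect when the other was present: over the tested mitosis genes the median glucose effect was 1.51 with glutamine and 0.88 without it, and the median glutamine effect 1.14 with glucose and 0.47 without it. Of 42 tested genes of mitosis and chromosome segregation 17 were called above 0 and 1, ASPM, below (median 0.76), with full the high medium in 15. Together 42.9% were called, against 26.5% of all tested genes, of which 1.72% were called with full high. ANLN, a scaffold of the cleavage furrow, read 231, 225 and 247 in full, 94.0, 92.2 and 92.9 in glucose-only, 87.5, 66.5 and 85.7 in glutamine-only and 91.1, 78.5 and 70.7 in deficient libraries. All 9 libraries lacking a nutrient lay between 66.5 and 94.0, under each full library (interaction 1.33 ± 0.18, adjusted p = 1.39e-06). Of 33 tested replication-dependent histone genes 16 were called (48.5%), all above 0 (median 0.72), against 15.5% of all tested genes. Full was high in 15, and DESeq2 called 9. H3C2 read 372, 423 and 323 in full, 128, 132 and 139 in glucose-only, 52.3, 89.6 and 71.8 in glutamine-only and 69.0, 73.7 and 64.4 in deficient libraries (1.46 ± 0.20), and its coding sequence has near-identical copies, which makes its value uncertain.

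Not all proliferation genes departed. DNA replication genes were called in 3 of 37 tested (8.11%, against 26.5% of all tested genes), namely RPA2, PCNA and RRM1 (median of the list 0.14). This count was 1 without glutamine-only replicate A or deficient replicate C and 5 without deficient replicate B. With DESeq2 none of the 37 was called, and with edgeR 3 were. TOP2A, the topoisomerase of dividing cells, read 575, 540.5 and 605 in full, 196, 192 and 226 in glucose-only, 152, 164 and 147 in glutamine-only and 62.5, 58.0 and 60.6 in deficient libraries. It went down step by step, its deficient level would have been 54.4 with multiplied effects and was 60.3, and the interaction was 0.15 with a 95% interval of -0.15 to 0.44. MKI67, the proliferation marker, had 0.51 ± 0.17 (adjusted p = 0.0255), and lost its call without full replicate A, glucose-only replicate C, glutamine-only replicate A or B, or deficient replicate B (0.36 to 0.67 over all libraries left out), with equal totals or quantile normalization, and with DESeq2 (adjusted p = 0.102). FN1, the matrix protein fibronectin, was also highest in full medium, with averages of 1135, 441, 667 and 543 (1.07 ± 0.13).

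Glucose-only cells stood apart, low, in 101 called genes, including targets of the hypoxia factor HIF1A and enzymes of lipid synthesis. Of 23 tested HIF1A targets 11 were called above 0 and 3 below (median 0.67), and in 5 glucose-only was the odd medium. The called share was 60.9%, against 26.5% of all tested genes. PLOD2, a collagen lysyl hydroxylase, read 155, 165 and 145 in full, 65.0, 63.9 and 44.7 in glucose-only, 105, 124 and 103 in glutamine-only and 138, 136 and 163 in deficient libraries. Glucose-only libraries were the lowest without overlap, and full and deficient overlapped, so that glutamine raised PLOD2 with glucose present (1.42) and lowered it without glucose (-0.39), both called (interaction 1.82 ± 0.19). The circadian and hypoxia repressor BHLHE40 averaged 40.6, 11.9, 42.7 and 64.7 (2.30 ± 0.27). BNIP3 and PGK1 were graded: BNIP3, a mitophagy receptor, averaged 404, 56.0, 251 and 88.0 (1.32 ± 0.16), and PGK1, a glycolytic kinase, 688, 122, 339.9 and 150.0 (1.30 ± 0.16).

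Glycolysis genes were called in 12 of 21 tested (57.1%), all above 0 (median 0.68), against 15.5% of all tested genes. They had no shared odd medium. HK2, the inducible hexokinase, averaged 43.8, 22.8, 37.9 and 99.0, with deficient high (2.28 ± 0.24). IDI1, an isomerase of the mevalonate pathway, read 78.0, 99.6 and 120.2 in full, 13.2, 17.8 and 17.6 in glucose-only, 86.6, 84.8 and 87.6 in glutamine-only and 52.1, 53.1 and 58.2 in deficient libraries. Loss of glutamine lowered IDI1 with and without glucose, but by more with it (2.53 against 0.66, interaction 1.87 ± 0.23), and the glucose-only libraries were the lowest. The desaturase SCD departed slightly the other way (-0.62 ± 0.14), at 674, 129.9, 990.1 and 123. TFRC, the transferrin receptor, averaged 428, 201, 323 and 352 (1.21 ± 0.14).

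Glutamine-only cells were the high ones in 57 called genes, and ER quality control genes were among them. EDEM1, which routes misfolded glycoproteins to degradation, read 97.9, 96.8 and 78.9 in full, 102, 92.2 and 98.8 in glucose-only, 227, 244 and 258 in glutamine-only and 134, 124 and 113 in deficient libraries. The glutamine-only libraries exceeded all others, and deficient libraries lay closer to those with glucose (interaction -1.07 ± 0.16, adjusted p = 1.15e-05). The ER reductase DNAJC10 averaged 123, 159, 259 and 155 (-1.11 ± 0.15). Of 29 tested ER chaperone and unfolded protein response genes 8 were called below 0 and 2, XBP1 and CALR, above (median -0.22). The called share was 34.5%, not far from 26.5% over all tested genes, and DESeq2 called 6 of the ER genes in all. ERN1, the IRE1 sensor, had full as the low medium, with averages of 13.3, 95.2, 61.5 and 113 (-1.88 ± 0.23). HYOU1, an ER chaperone, had -1.76 but kept its call in only 4 of the 12 fits with a library left out (-2.28 to -1.17) and was not called with edgeR (adjusted p = 0.0924) or DESeq2 (adjusted p = 0.137).

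The leading ER chaperone did not depart. HSPA5 (ENSG00000044574, chromosome 9, 125234853 to 125241343) read 239, 261 and 268 in full, 285, 313 and 327 in glucose-only, 1266, 1248 and 1309.5 in glutamine-only and 1623, 1529.8 and 1643 in deficient libraries. Glucose lowered HSPA5 by 2.31 on the log2 scale with glutamine and by 2.37 without it, and the interaction was 0.06 ± 0.13 (95% interval -0.21 to 0.33, adjusted p = 0.785). After quantile normalization it was -0.45 (adjusted p = 0.0202), and with equal totals it was -0.01. TXNIP, the arrestin-like gene switched on by glucose through MondoA, averaged 123, 185, 9.36 and 15.8, with a glucose effect of 3.61 with glutamine and 3.47 without it and an interaction of 0.14 (95% interval -0.36 to 0.64). DNAJB9 (-0.06), H1-4 (0.15), the integrin ITGA1 (-0.14) and TOP2A were the 4 closest to 0 among abundant genes with called average effects of both nutrients of at least 1.

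**Figure D4:**
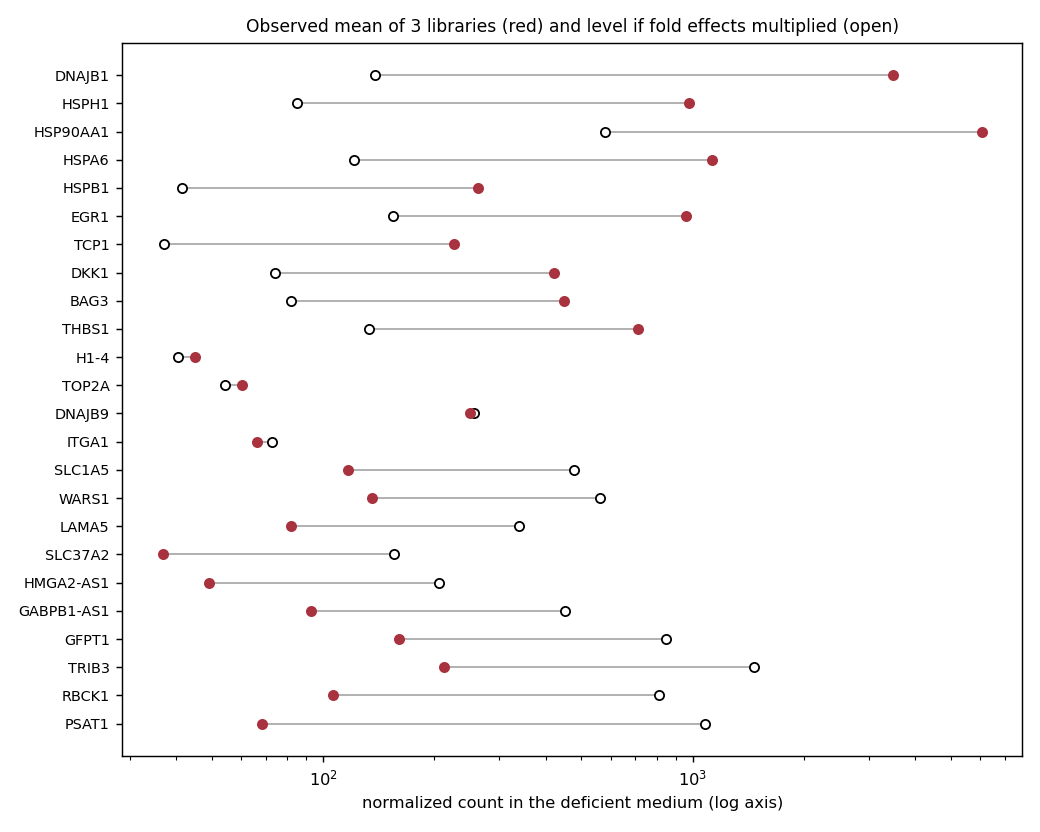
For 24 genes named by rule, the mean of the 3 deficient libraries (red) and the level that multiplied fold effects would give (open), in normalized counts on a log axis. The 10 genes at the top lie 5.32 to 25 times above that level, the near-additive genes in the middle coincide with it, and TRIB3, RBCK1 and PSAT1 at the bottom lie far under it.

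How close a gene was to 0 was read from its interval, since a p that misses the threshold does not show multiplying effects. The 95% interval lay inside -1 to 1 in 3352 genes (36.2%) and inside -0.5 to 0.5 in 374 (4.03%), and 299 of the called genes were also inside -1 to 1. Among 2048 genes with called average effects of both nutrients, 817 (39.9%) lay inside -1 to 1 and 855 were called. Both shares moved with the level of the gene. Over 4 equal bins of genes from low to high mean normalized count, the called share went from 14.9% to 18.5%, 29.2% and 43.5%, and the share inside -1 to 1 from 2.42% to 67.4%. On the scale of amounts instead of folds the interaction had the opposite sign in 11 of the 2458 called genes (0.448%), and INSIG1, a sterol sensor, was among them at 227, 19.1, 279.8 and 51.5 (1.10 ± 0.22 on the log2 scale).

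Mitochondrial programs differed among themselves in how many genes were called. Fatty acid oxidation was called in 1 of 16 tested genes, ACAA2; the count was 0 without glucose-only replicate C or glutamine-only replicate A and 2 without glutamine-only replicate B or deficient replicate C, and 0 with DESeq2. The tricarboxylic acid cycle was called in 5 of 21 (23.8%, against 26.5% of all tested genes), with interactions of the tested members from -2.15 to 1.17, and the nuclear respiratory chain in 11 of 33 (33.3%), 10 of them above 0 (median 0.32), with 7 called by DESeq2. The 13 messenger RNAs of the mitochondrial genome included 5 called (38.5%), all below 0 (median -0.34), with MT-ND3 at -0.70 ± 0.15, and 2 to 3 of them were called without full replicate A, glucose-only replicate B or C, glutamine-only replicate B or C, or deficient replicate A.

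**Figure D5:**
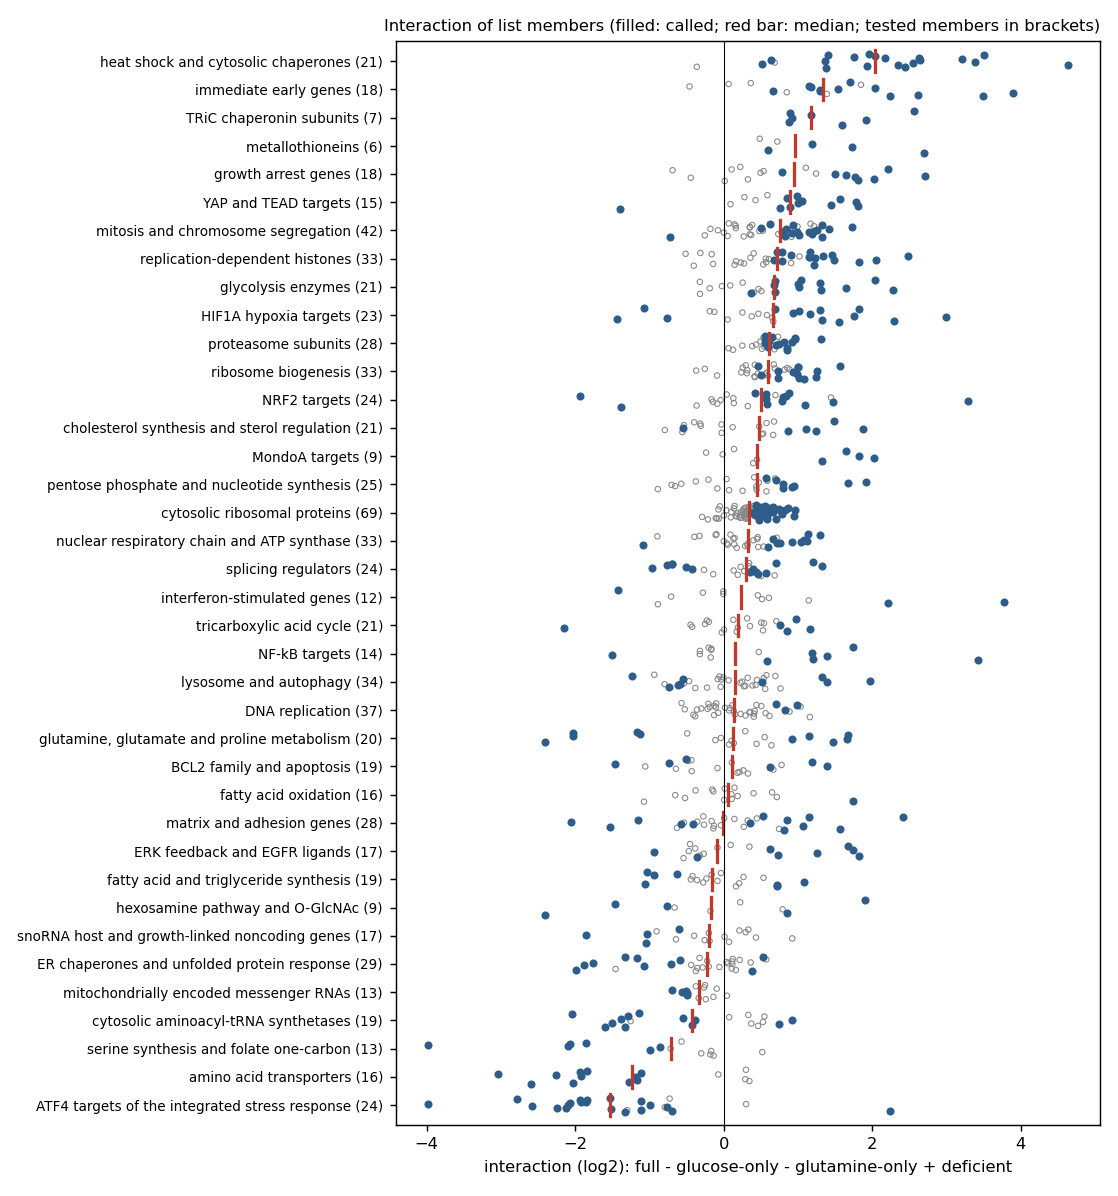
Interaction (log2) of each tested member of 38 gene lists, ordered by list median; filled points are called genes, open points are not, red bars are medians, and brackets give the tested members. Heat shock genes lie at the top (median 2.04) and ATF4 targets (-1.53) and amino acid transporters (-1.24) at the bottom, while most lists are centred within 1 of 0.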

How the data were processed

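Total RNA depleted of ribosomal RNA was sequenced from 12 libraries, 3 for each of 4 media. The authors deposited normalized counts (a signal in reads divided by a size factor per library); FastQC, HISAT2, Subread, DESeq2 and the build GRCh38.p14 are named per the submitters' processing notes, while versions, the annotation release and the strand setting are not given in the sources used here. Whole reads could be recovered, since 100% of values were whole multiples of a library's step within 0.01 reads.

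Values were tested as log2(normalized count + 1) with limma-trend 3.58.1 (R 4.3.3), with a mean per medium, no covariate and Benjamini-Hochberg adjustment at 0.05 over all 9270 genes with at least 10 in at least 3 libraries. Fold changes are on that scale, which understates changes of low genes. The recovered reads were tested with edgeR 4.0.16 (quasi-likelihood, 2524 genes called) and DESeq2 1.42.0. The members and gene lists were chosen with earlier results of these data known.

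Named genes were the 10 highest and 10 lowest interactions among called genes with a mean of at least 100, the 3 largest of each class, up to 4 per described list, fixed anchor genes, and the 4 abundant genes with both average effects of at least 1 whose interaction was closest to 0; list members outside this rule, such as those making up a count of 5 or fewer, were named after their values were seen. Gene positions are those of the GRCh38.p14 table. On simulated counts for 8951 genes, the fit called 5.97% of interactions of 0.585, 47.7% of 1 and 90.6% of 2 in size (log2). It also called 2 of 8755 unchanged genes. Far fewer genes had an interaction there than the 26.5% called in the main fit. Whether these rates hold for the 2458 called genes was not tested. Replicate letters were not used to pair the libraries in the main fit. Alternatives covered the pseudocount, filter, scaling, test, thresholds, class rule, replicate block and each library left out; the use of protein-coding genes alone was added after seeing the data.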

Additional observations from a re-analysis of the deposited data

Results flagged for a closer look

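The interaction is itself the test of whether the effect of glucose differed with and without glutamine, and by limma with Benjamini-Hochberg adjustment it did in 2458 genes. In 163 of them the effects of both nutrients were called with and without the other and changed sign. Groups of 3 libraries were too small to test for outlying samples.

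Among abundant genes the 10 highest interactions were DNAJB1 at 4.64, HSPH1 at 3.50, HSP90AA1 at 3.38, HSPA6 at 3.20, HSPB1 and EGR1 both at 2.62, TCP1 at 2.57, DKK1 at 2.49, BAG3 at 2.44 and THBS1 at 2.41. Of these, HSPA6 lost its call with edgeR and DESeq2. The 10 lowest were SLC1A5 at -2.03, WARS1 at -2.05, LAMA5 at -2.05, SLC37A2 at -2.07, HMGA2-AS1 at -2.09, GABPB1-AS1 at -2.27, GFPT1 at -2.40, TRIB3 at -2.79, RBCK1 at -2.92 and PSAT1 at -3.99.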

How the results depend on the processing

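The 2458 calls became 2524 with edgeR (2354 shared with the same sign), 2413 with size factors from protein-coding genes and 2463 among protein-coding genes alone (both added after seeing the data), and 2143 to 2443 with a library left out. No setting gave a shared call of opposite sign. The replicate block gave 2492 calls, 2415 of them shared. Correlations of deviations had a median of 0.0101 and a maximum of 0.067 for the same letter, and -0.00554 and 0.0392 for other letters. Between media, 18 pairs of libraries shared a letter and 36 did not, and 9 of 12 libraries correlated best with their own letter. These correlations were small, and whether the letters mark a pairing cannot be settled from them. DESeq2 called 1495 (844 above 0, 651 below; full 160, glucose-only 73, glutamine-only 51, deficient 720, graded 71). An adjusted p under 0.01 left 1496 (929 and 567; full 161, glucose-only 80, glutamine-only 52, deficient 728, crossed 397, graded 78). A mean of at least 100 left 632 (449 and 183; full 106, glucose-only 34, glutamine-only 29, deficient 278, crossed 95, graded 90), and a constant prior variance 97 graded genes. With a gap of 0.5 times the range, glucose-only was odd in 241, glutamine-only in 210, crossed genes numbered 253 and graded 20; with a gap of 2 times, full was odd in 134, glucose-only in 40, glutamine-only in 45, deficient in 712, crossed 1032 and graded 495. The 3352 near-additive genes became 5741 with a pseudocount of 8, 5543 without a filter and 844 with a mean of at least 100. The interaction share of 20.4% was 22.8% without a filter, 18.5% with a mean of at least 100, 17.8% with equal totals and 21.2% after quantile normalization. Among the 185 named genes the sign reversed in 5, whose values as reported lay within 0.15 of 0: H1-4 (-0.053) and TOP2A (-0.034) after quantile normalization, TXNIP with a pseudocount of 8 (-0.094), HSPA5 with equal totals (-0.0063) and quantile normalization (-0.45), and DNAJB9 with a pseudocount of 8 (0.083) and with a library left out (-0.195 to 0.101). Except where fewer genes or libraries were used, the cause was not tested. Of 950 list counts compared, 867 stayed within 1.5 times. Among the genes with a mean under 15.5 normalized counts, 2.42% had an interval inside -1 to 1, so departures smaller than that were mostly not detectable there.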

Other observations

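Long noncoding RNAs departed mostly below 0. Of 276 tested, 113 were called (40.9%, against 26.5% of all tested genes), 11 above 0 and 102 below, with a median of -0.82. The deficient medium was the low one in 41, both single-nutrient media were high in 40, and the full medium was low in 16. Their median glucose effect was -0.43 with glutamine and 0.39 without it, and their median glutamine effect -0.38 with glucose and 0.46 without it. These RNAs had a median normalized count of 13.2, and among the 46 with a mean of at least 50, 23 were called, 21 of them below 0. Protein-coding genes with a mean under 50 gave 619 calls above 0 and 577 below. HMGA2-AS1, antisense to the chromatin gene HMGA2, was among the lowest of all abundant genes at -2.09 ± 0.21.

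Zinc finger genes with ZNF symbols, a class chosen after its values were seen, were called in 64 of 245 (26.1%, against 26.5% of all tested genes), 13 above 0 and 51 below (median -0.41; 11% of all tested genes were called below 0), and nothing is read from this about the class. Of 113 tested small nucleolar RNAs 4 were called (3.54%, against 26.5% of all tested genes), all below 0. Of 24 tested splicing regulators 14 were called (58.3%, against the same 26.5%), 8 above 0 and 6 below, and DESeq2 called 8 in all. Metallothioneins, small metal-binding proteins, were called in 4 of 6 tested (66.7%), all above 0 (median 0.96), against 15.5% of all tested genes. MT1A lay near the count minimum, with averages of 6.57, 3.56, 4.68 and 14.4 in full, glucose-only, glutamine-only and deficient medium. MT1E was not called with DESeq2 (adjusted p = 0.0549), and MT1X shares 18.1% of its exonic bases on the same strand.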
